A study of Homo sapiens with 14 samples.

Results

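GPM6B, CADM1, CNR1, NPY1R, CACNG4, FAIM2, SCUBE3, PRSS35 and KLHDC8A are 9 genes, of 24485 uniquely named genes in the expression tables, whose RNA was low in radioresistant U251MG cells. U251MG is an established human glioblastoma cell line. The 9 genes were chosen by their low TPM in radioresistant against control cells, so their values in that comparison are described here without a test. All 9 had a row in both expression tables and reached the level needed for testing in both. RNA was measured in 3 libraries each of 4 groups. Cells labelled shIFI16 were radioresistant cells with a short hairpin RNA against IFI16, a sensor of DNA in nucleus and cytosol, and cells labelled shNC were radioresistant cells with the hairpin of the comparison group. Radioresistant cells had been given 30 daily X-ray doses of 2 Gy, or 60 Gy in all, and control cells are labelled as the line without that treatment. All groups carry the same genotype label, WT. ATAC-seq, which maps open chromatin, covered 1 radioresistant and 1 control library.

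Neural cells use membrane proteins to hold on to neighbours, to sense transmitters and to place receptors at synapses, and glioblastoma cells often keep part of that equipment. CADM1 is an adhesion molecule of the immunoglobulin family that also holds synapses together, and GPM6B is a multi-pass membrane glycoprotein of neurons and glia. CNR1 encodes the cannabinoid receptor of the brain and NPY1R a receptor for neuropeptide Y, both coupled to G proteins. CACNG4 encodes an auxiliary subunit that guides AMPA-type glutamate receptors to the membrane. FAIM2 is a membrane protein that inhibits cell death through FAS. The name neural membrane genes does not cover the remaining genes. SCUBE3 is a secreted glycoprotein that binds to the cell surface and acts on TGF-beta and hedgehog signalling, PRSS35 is a secreted protein of the trypsin family, and KLHDC8A is a kelch-repeat protein found inside the cell and known from gliomas.

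Expression was deposited as TPM (transcripts per 1000000, which corrects for gene length), so the depth behind a value is unknown. Between 12377 and 13033 genes reached 1 TPM in a library. Replicate libraries of a group had Pearson's r of 0.97 to 0.987 over log2(TPM + 1) of genes, which are not independent points, and control replicate 3 had the lowest values within its group, 0.97 and 0.979. IFI16 averaged 7.43 ± 0.634 TPM in shIFI16 and 131 ± 7.69 TPM in shNC cells, and 267 ± 36.1 TPM in radioresistant and 63.7 ± 12.2 TPM in control cells (SD, n = 3 each). The labels name no second hairpin and no rescue, so the loss of IFI16 and other differences between the hairpin populations cannot be told apart. Nothing in the labels says that replicates came from separate cultures, so p-values speak only of the spread among these libraries, possibly a technical one.

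The promoters of 3 of the genes are shown because GPM6B had the largest difference between radioresistant and control cells on the log2(TPM + 1) scale (with a pseudocount of 0.1 it was that of KLHDC8A) and because, of the 5 genes with a listed start, PRSS35 and NPY1R had an ATAC-seq summit within 2000 bases of it. Each runs 5′ to 3′ on the strand of the gene, from 250 bases before to 50 bases after the start (RefSeq, GRCh38.p14). Capitals mark matches on either strand to the searched motifs, which were GGGCGG (the GC box), ACAAAG (bound by SOX factors), TGACGTCA (the cAMP response element), the core of the interferon-stimulated response element (named only), TATAAA (the TATA box) and CAGCTG (an E-box of neural factors).
GPM6B, chrX:13938589-13938888, minus strand: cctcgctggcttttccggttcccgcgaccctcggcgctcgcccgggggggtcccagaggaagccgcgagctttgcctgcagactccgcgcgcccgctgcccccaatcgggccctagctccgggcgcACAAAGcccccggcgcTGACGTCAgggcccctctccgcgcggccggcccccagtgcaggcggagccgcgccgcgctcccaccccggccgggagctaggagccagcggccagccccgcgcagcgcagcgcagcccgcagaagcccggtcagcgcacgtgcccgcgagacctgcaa
NPY1R, chr4:163332547-163332846, minus strand: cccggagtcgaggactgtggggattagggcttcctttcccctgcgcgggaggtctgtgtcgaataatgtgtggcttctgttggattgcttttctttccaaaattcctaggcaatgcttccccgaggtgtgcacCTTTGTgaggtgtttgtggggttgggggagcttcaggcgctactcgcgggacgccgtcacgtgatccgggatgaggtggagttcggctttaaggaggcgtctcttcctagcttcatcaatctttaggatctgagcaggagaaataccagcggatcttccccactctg
PRSS35, chr6:83512284-83512583, plus strand: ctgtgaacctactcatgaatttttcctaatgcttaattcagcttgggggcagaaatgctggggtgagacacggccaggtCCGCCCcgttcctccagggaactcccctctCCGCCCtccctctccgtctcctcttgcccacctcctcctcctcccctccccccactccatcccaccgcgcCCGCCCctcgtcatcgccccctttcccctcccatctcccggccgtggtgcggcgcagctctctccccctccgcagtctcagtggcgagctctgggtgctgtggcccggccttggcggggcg
In the GPM6B promoter a SOX motif began 124 bases and a cAMP response element 108 bases before the start, and in the PRSS35 promoter GC boxes began 171, 141 and 71 bases before it. The NPY1R promoter held a SOX motif 117 bases before the start. Promoters were found in the RefSeq table for 5 of the 9 genes, some with several starts, 12 promoters in all; CADM1, CACNG4, FAIM2 and SCUBE3 had no entry. The cAMP response element was in 1 of the 12 against 1.85% of all 35116 promoters, the SOX motif in 4 against 16.1%, the GC box in 6 against 45% and the interferon element in 0 against 3.57%. The TATA box and the E-box were in 2 each, against 11.5% and 17.9%. CNR1 accounts for 6 of the 12 promoters, and some promoters of CNR1 and KLHDC8A overlap each other. Such matches describe letters only.

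In control cells the 9 genes ranged from moderate to very high levels, and in radioresistant cells every one of them stood below every control library. The means in radioresistant cells were 0 to 9.01% of the control means. No overlap in that direction was seen for 9 of 9 genes, against 31.7% of all 13127 genes tested in that table; as this comparison chose the genes, nothing is read from the difference. Over all genes tested, 2220 were called higher and 3542 lower in radioresistant cells (limma, adjusted p under 0.05), or 2943 and 2974 with median-ratio scaling. That scaling moved the median of all genes from -0.106 to 0.003 on the log2 scale, small beside the differences of these genes. In bulk RNA, fewer cells that make a transcript and less transcript per cell cannot be told apart.

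**Figure D1:**
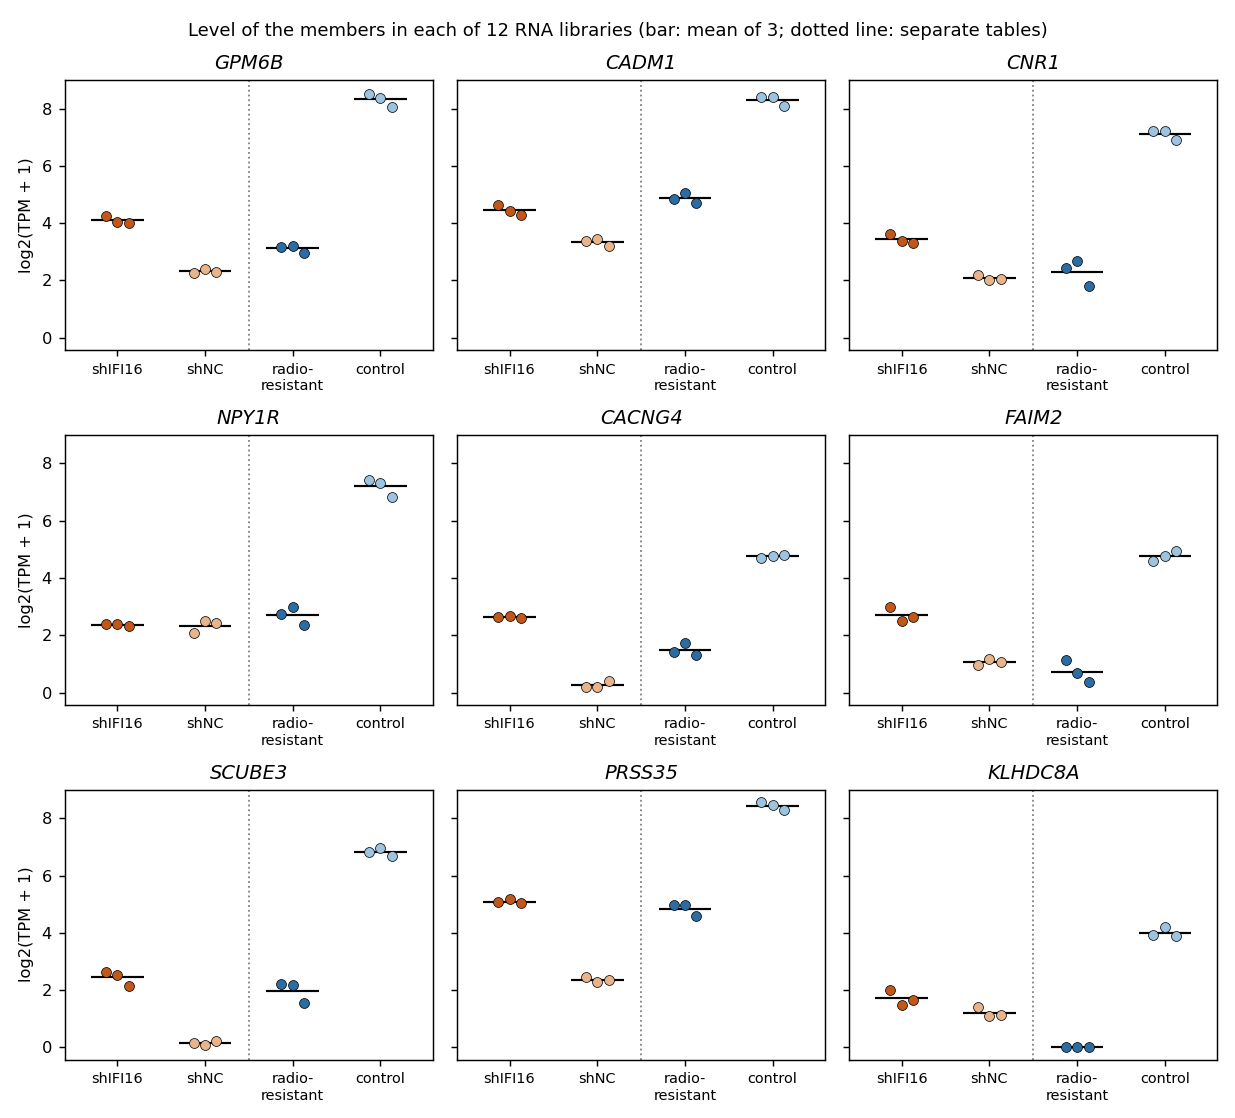
Level of each of the 9 genes in each RNA library, as log2(TPM + 1) on the vertical axis, with shIFI16, shNC, radioresistant and control libraries as columns of 3 points and a bar for their mean on this scale. Control libraries stand highest in every panel, and shIFI16 libraries stand above shNC libraries in every panel but that of NPY1R; the dotted line parts the 2 separately normalized tables.

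Among the adhesion and structural proteins, GPM6B had 8.01, 8.24 and 6.85 TPM in radioresistant libraries, against 365, 333 and 268 TPM in control libraries. Its mean was 41.8-fold lower in radioresistant cells. GPM6B had a higher value than 59.9 to 60.4% of rows in radioresistant libraries and than 97.5 to 98.4% in control libraries. CADM1 had 27.9, 32.2 and 25 TPM in radioresistant libraries, against 338, 334 and 272 TPM in control libraries, an 11.1-fold lower mean. It kept the highest level of the 9 genes in radioresistant cells, close to that of PRSS35.

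Of the receptors, CNR1 had 4.4, 5.43 and 2.5 TPM in radioresistant libraries, against 149, 148 and 120 TPM in control libraries. NPY1R had 5.75, 7.01 and 4.13 TPM in radioresistant libraries, against 169, 160 and 114 TPM in control libraries. The means were 33.8-fold lower for CNR1 and 26.2-fold lower for NPY1R, with control means that lay close together. CACNG4, the AMPA receptor subunit, had 1.69, 2.35 and 1.46 TPM in radioresistant libraries, against 24.9, 26.3 and 26.9 TPM in control libraries. FAIM2 had 1.19, 0.623 and 0.29 TPM in radioresistant libraries, against 23, 26.1 and 30.1 TPM in control libraries. CACNG4 and FAIM2 had like levels in control cells, but their means were 14.2-fold and 37.6-fold lower.

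Secreted SCUBE3 had 3.66, 3.5 and 1.95 TPM in radioresistant libraries, against 113, 123 and 103 TPM in control libraries. PRSS35, the most abundant of the 9 genes in control cells, had 30.4, 30.4 and 23.3 TPM in radioresistant libraries, against 381, 355 and 309 TPM in control libraries. The intracellular kelch protein gene KLHDC8A was listed at 0 in all 3 radioresistant libraries, against 14.2, 17.4 and 14 TPM in control libraries. No fold can be given for KLHDC8A, which was also the least abundant of the 9 genes in control cells.

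Control replicate 3 was the lowest control library for 7 of the 9 genes, at 0.693 (NPY1R) to 0.884 (KLHDC8A) times the mean of the other control libraries, and the highest for CACNG4 and FAIM2 (1.05 and 1.23 times). Radioresistant replicate 3 was the lowest radioresistant library for 8 of the 8 genes above 0. These gaps were small beside the distance between the groups.

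After knockdown of IFI16 in radioresistant cells, 8 of the 9 genes rose and NPY1R did not pass the test. That comparison used other libraries than the choice of the genes did, but the 9 were picked with earlier results of these data known. The share called higher was 16.6% among all 12567 genes tested in the hairpin table. A rise of at least 2-fold on the log2(TPM + 1) scale was called for 7 of the 9 genes, against 1.27% of all genes tested. The median difference of the 9 genes was 1.64 (log2), against 0.02 for all genes tested. CACNG4 and SCUBE3 stood under 1 TPM in all shNC libraries and passed the filter on low values through the shIFI16 libraries, which set their direction. Of the other 7 genes, 6 rose. CACNG4 and SCUBE3 also count among the genes with at least a 2-fold rise and enter the median, so those values are partly set by the filter. Every shIFI16 library stood above every shNC library for 8 of the 9 genes, CACNG4 and SCUBE3 among them, against 23.4% of all genes tested.

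PRSS35 had the largest rise of the 9 genes on the log2(TPM + 1) scale, with 32.6, 35.4 and 31.6 TPM in shIFI16 libraries, against 4.47, 3.92 and 4.15 TPM in shNC libraries. The difference was 2.72 (log2, SE 0.1, 95% interval 2.51 to 2.93, limma adjusted p = 1.7e-11). GPM6B had 18.2, 15.5 and 15.2 TPM in shIFI16 libraries, against 3.81, 4.31 and 3.84 TPM in shNC libraries. GPM6B rose by 1.79 (log2, SE 0.111, limma adjusted p = 9.9e-09). For both genes the lowest shIFI16 library was far above the highest shNC library. CADM1 rose less, by 1.11 (log2, SE 0.112, limma adjusted p = 1.9e-06), with 23.9, 20.7 and 18.4 TPM in shIFI16 libraries, against 9.25, 10 and 8.24 TPM in shNC libraries.

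The G protein-coupled receptors parted in this comparison. CNR1 had 11.3, 9.4 and 8.93 TPM in shIFI16 libraries, against 3.59, 3.04 and 3.17 TPM in shNC libraries, and rose by 1.34 (log2, SE 0.121, limma adjusted p = 4.9e-07). NPY1R had 4.24, 4.22 and 4.04 TPM in shIFI16 libraries, against 3.27, 4.61 and 4.33 TPM in shNC libraries. Its shIFI16 values lay within the range of its shNC values, and the difference was 0.04 (log2, 95% interval -0.24 to 0.31, limma adjusted p = 0.86). That interval lies under the estimate of each other gene of the 9, but whether NPY1R differed from them was not tested.

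CACNG4 had 5.3, 5.44 and 5.11 TPM in shIFI16 libraries, against 0.141, 0.142 and 0.338 TPM in shNC libraries, and rose by 2.38 (log2, SE 0.136, limma adjusted p = 3.6e-09). FAIM2 had 6.93, 4.67 and 5.16 TPM in shIFI16 libraries, against 0.928, 1.25 and 1.11 TPM in shNC libraries, and rose by 1.64 (log2, SE 0.146, limma adjusted p = 4.7e-07). SCUBE3 had 5.26, 4.8 and 3.46 TPM in shIFI16 libraries, against 0.12, 0.0727 and 0.155 TPM in shNC libraries, and rose by 2.29 (log2, SE 0.153, limma adjusted p = 2.1e-08). CACNG4 and SCUBE3 were nearly absent in shNC libraries, and the size of their differences depends on the pseudocount. With 0.1 in place of 1 the differences were 4.19 for CACNG4 and 4.41 for SCUBE3, above that of PRSS35, and with 5 they were 0.98 and 0.89. For FAIM2 they were 2.24 with 0.1 and 0.79 with 5. KLHDC8A had 3.02, 1.78 and 2.15 TPM in shIFI16 libraries, against 1.63, 1.14 and 1.18 TPM in shNC libraries, with no overlap but little room between the groups. It rose by 0.51 (log2, SE 0.159, limma adjusted p = 0.022), and that call ended without a filter on low values (0.066), without shIFI16 replicate 1 (0.1), without shNC replicate 2 (0.083) and without shNC replicate 3 (0.064), in a range of 0.006 to 0.1 over the alternatives.

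**Figure D2:**
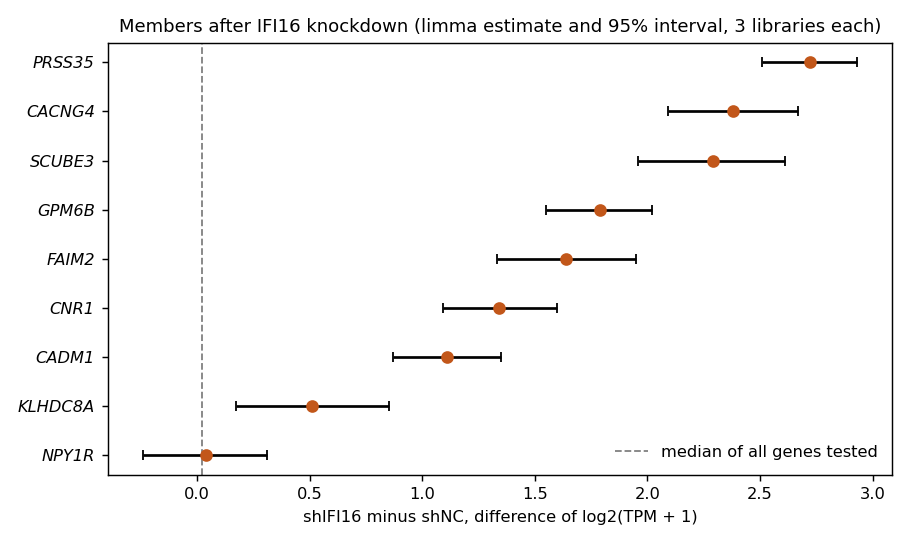
Difference between shIFI16 and shNC cells for each of the 9 genes on the log2(TPM + 1) scale, with limma's 95% interval from 3 libraries each; the dashed line marks the median of all genes tested. PRSS35 stands highest at 2.72, and NPY1R lies on the dashed line with an interval of -0.24 to 0.31.

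The levels after knockdown stayed far under those of control cells. The hairpin libraries and the control libraries come from tables that were normalized separately, so these levels are set side by side without a test. All 9 genes had a lower mean in shIFI16 cells than in control cells, from 2.82% (NPY1R) to 21.1% (FAIM2) of the control mean. CACNG4 stood at 20.3% and KLHDC8A at 15.3% of the control mean in shIFI16 cells, while GPM6B stood at 5.05%. In shNC cells 7 of the 9 genes had a lower mean than in radioresistant cells without a hairpin. PRSS35 averaged 4.18 TPM in shNC and 28 TPM in radioresistant cells, and SCUBE3 averaged 0.116 TPM in shNC and 3.03 TPM in radioresistant cells. FAIM2 and KLHDC8A were the exceptions. KLHDC8A was above 0 in all 6 hairpin libraries although it was listed at 0 in all 3 radioresistant libraries. CADM1 and NPY1R were the genes whose shIFI16 mean did not exceed the mean in radioresistant cells without a hairpin (21 against 28.4 TPM for CADM1, 4.17 against 5.63 TPM for NPY1R).

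**Figure D3:**
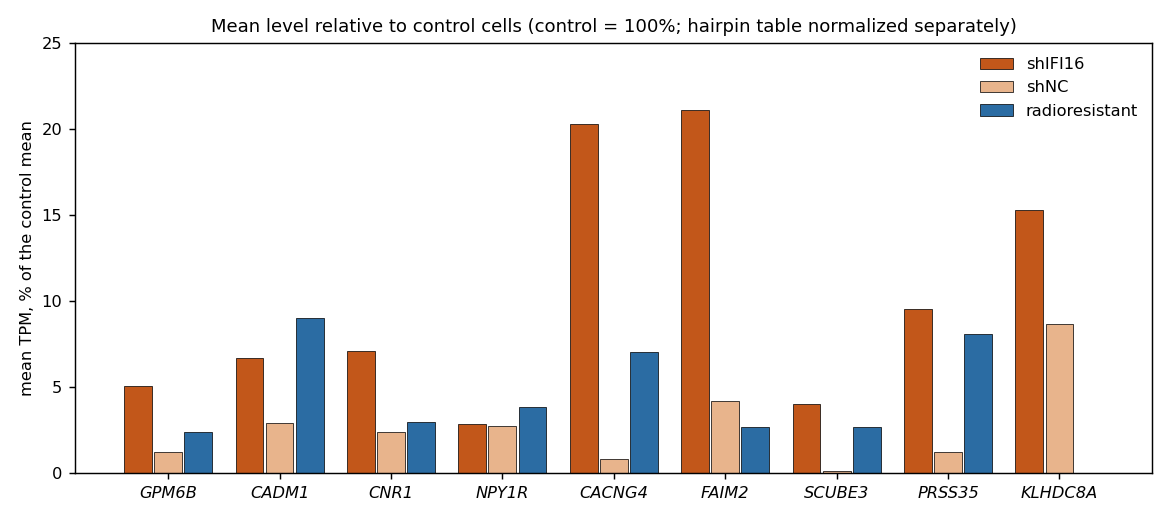
Mean TPM of each gene in shIFI16, shNC and radioresistant cells as a percentage of its mean in control cells, each from 3 libraries; the hairpin groups come from a separately normalized table. No bar passes 21.1%, and KLHDC8A has no bar for radioresistant cells because it was listed at 0.

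Many other genes with much lower RNA in radioresistant cells also rose after knockdown. Besides these 9, 129 genes were called lower by at least 4-fold in radioresistant cells, and 103 of them were tested after knockdown. The other 26 did not reach the level for testing in the hairpin libraries. Of the 103 genes 55 (53.4%) were called higher in shIFI16 cells and 16 (15.5%) lower, against 16.6% and 16.3% of all genes tested. At least a 2-fold rise was called for 20 of the 103 genes (19.4%), against 1.27% of all genes tested. Genes under 1 TPM in all shNC libraries entered these counts only through their shIFI16 values, so the filter on low values set their direction. ZNF423 (mean 0.0127 TPM in shNC cells) and LSAMP are among them. The 2 comparisons share no library. The largest difference in both directions was that of GFAP, the astrocyte filament gene, at -5.66 in radioresistant cells and 3.56 after knockdown (log2). The difference in share between the 9 genes and the 103 genes was not tested, since the 9 were picked with results of these data known.

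**Figure D4:**
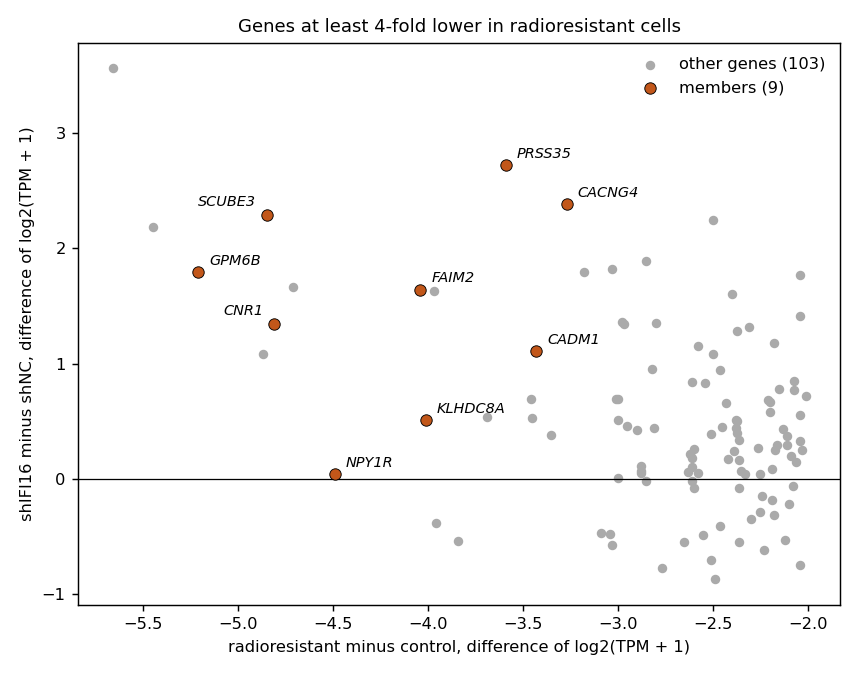
Genes at least 4-fold lower in radioresistant cells that were tested after knockdown, with the difference between radioresistant and control cells on the horizontal axis and that between shIFI16 and shNC cells on the vertical axis, both of log2(TPM + 1). The 9 genes are labelled and 103 other genes are grey; PRSS35 stands at 2.72 and NPY1R at 0.04 on the vertical axis, and the grey point at the top left, at 3.56, is GFAP.

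Likeness was measured as Pearson's r over all 12 RNA libraries after centring each table on its own mean, among 12359 genes tested in both tables. It is a description, and the points share libraries and the wide step between radioresistant and control cells. The genes most like the mean of the 9 were ZNF423 (r = 0.998), LOC100507065 (0.998), CLU (0.996), IGFBP5 (0.996) and KLHL13 (0.995). ZNF423, a zinc finger transcription factor, averaged 3.6 TPM in shIFI16 and 0.0127 TPM in shNC cells, and 0.249 TPM in radioresistant and 53.9 TPM in control cells. IGFBP5, which binds insulin-like growth factors, averaged 9.68 TPM in shIFI16 and 2.38 TPM in shNC cells, and 6.57 TPM in radioresistant and 189 TPM in control cells. CLU, a secreted chaperone, averaged 26.6, 15.3, 34.8 and 148 TPM in shIFI16, shNC, radioresistant and control cells, and KLHL13 averaged 24.7, 17.5, 27.3 and 78 TPM. Within the 9 genes, r with the mean of the others ran from 0.923 (NPY1R) to 0.998 (GPM6B). The 9 genes were chosen by their step between radioresistant and control cells, so high values of r among them follow largely from that choice. NPY1R reached its value with a difference of only 0.04 (log2) after knockdown. The closest genes to GPM6B were CADM1, ZNF423 and LOC100507065, those to CADM1 were GPM6B, KLHL13 and CNR1, and those to SCUBE3 were WSCD1, LBH and LOC100507065, all with r of at least 0.995.

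Families and pathways of the 9 genes were followed through 185 further genes in 13 lists. In radioresistant cells 92 of them were tested, 15 were called higher (16.3%, against 16.9% of all genes tested) and 40 lower (43.5%, against 27% of all genes tested). Their median difference was -0.32 (log2), against -0.11 for all genes tested. After knockdown 83 were tested, 18 were called higher (21.7%, against 16.6%) and 25 lower (30.1%, against 16.3%), with a median of -0.03, against 0.02. Of the 40 genes called lower in radioresistant cells, 9 were called higher and 7 lower after knockdown. In both comparisons some of the called genes were under 1 TPM throughout the lower group, so the filter on low values set their direction. The count of 18 was 9 without shIFI16 replicate 2 and 11 without shIFI16 replicate 1.

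The paralogs of the 9 genes did not follow as a group. GPM6A, the close paralog of GPM6B, averaged 73.8 ± 11 TPM in radioresistant and 393 ± 66.9 TPM in control cells and fell by 2.39 (log2, SE 0.152, limma adjusted p = 1.1e-06). After knockdown GPM6A rose by 0.24 (122 ± 5.18 TPM in shIFI16 and 103 ± 3.57 TPM in shNC cells, limma adjusted p = 0.011). In the CADM and nectin list 3 of 5 tested genes fell in radioresistant cells and 0 rose, and 2 of 6 rose and 2 fell after knockdown. CADM4 moved as CADM1 did, with 3.4 ± 1.28 TPM in radioresistant and 17 ± 4.36 TPM in control cells (log2 difference -2.04, limma adjusted p = 5.5e-05), and 13.7 ± 1.27 TPM in shIFI16 and 3.3 ± 0.166 TPM in shNC cells (log2 difference 1.77, limma adjusted p = 1.2e-08). CADM2 fell in both comparisons, by 3.84 in radioresistant cells (limma adjusted p = 7.7e-08) and by 0.54 after knockdown (limma adjusted p = 0.014). In the first of these it was under 1 TPM in all radioresistant libraries, and the filter on low values set its direction. CADM3 had 2.13, 1.5 and 1.48 TPM in shIFI16 libraries and was listed at 0 in all 3 shNC libraries (limma adjusted p = 4.0e-06), so the filter on low values set its direction. SCUBE1 and SCUBE2 stayed under 1 TPM in all 12 libraries.

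Other adhesion genes moved both ways in radioresistant cells. Of 12 tested immunoglobulin and contactin genes 3 rose and 4 fell, and of 11 tested synaptic adhesion genes 2 rose and 7 fell. CNTNAP2, among the 3 that rose, passed the low-value filter through its radioresistant values, which set its direction. LSAMP fell by 2.04 (limma adjusted p = 5.9e-06), CNTN1 by 1.93 (limma adjusted p = 4.3e-06) and the neurexin gene NRXN3 by 1.83 (limma adjusted p = 5.2e-06), on the log2 scale. NFASC, a neurofascin gene, and L1CAM, which guides axons, rose. NFASC averaged 4.17 ± 0.352 TPM in radioresistant and 0.267 ± 0.105 TPM in control cells and passed the low-value filter through its radioresistant values (limma adjusted p = 3.4e-06). L1CAM stood at 8.69 ± 0.37 TPM in radioresistant and 1.1 ± 0.277 TPM in control cells (log2 difference 2.22, limma adjusted p = 1.9e-06). The ephrin receptor gene EPHB2 rose by 2.06 (limma adjusted p = 2.0e-06) in radioresistant cells and fell by 0.59 after knockdown (limma adjusted p = 0.0014). SLITRK6 fell by 1.55 and NLGN1, a neuroligin gene, by 1.42 in radioresistant cells (limma adjusted p = 1.4e-04 and 1.5e-04). SLITRK6 was under 1 TPM in all radioresistant libraries, so the filter set its direction. After knockdown 2 of 11 immunoglobulin and contactin genes rose and 5 fell, and 0 of 8 synaptic adhesion genes rose and 2 fell, among them NLGN1 (log2 difference -0.77, limma adjusted p = 9.3e-05). LSAMP, among those that rose, was under 1 TPM in all shNC libraries, so the filter set its direction.

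Partners of the receptors and channels were counted in the same way. Of 10 tested endocannabinoid genes 4 rose and 1 fell in radioresistant cells. MGLL, the lipase that degrades the ligand of the CNR1 receptor, averaged 2.95 ± 0.546 TPM in radioresistant and 0.0178 ± 0.0168 TPM in control cells, (limma adjusted p = 6.4e-06), its radioresistant values alone being above the filter. The ligand-making lipase gene DAGLA rose by 0.80 (log2, limma adjusted p = 0.0045). After knockdown 1 of 9 endocannabinoid genes rose and 4 fell. No gene of the neuropeptide Y list reached the level for testing, and NPY, PYY, PPY and NPY5R were listed at 0 in all 12 libraries. Among TARPs and AMPA receptor genes 0 of 5 rose and 2 fell in radioresistant cells, including CNIH2, an AMPA receptor escort (3.25 ± 0.563 TPM in radioresistant and 19.5 ± 8.49 TPM in control cells, limma adjusted p = 5.7e-05), and 1 of 3 rose and 1 fell after knockdown. CNIH3, which also fell in radioresistant cells, was under 1 TPM in all radioresistant libraries, so the filter set its direction. Of 6 voltage-gated calcium channel genes 0 rose and 3 fell in radioresistant cells, with CACNA2D1 at -1.56 (log2, limma adjusted p = 1.0e-05), and 0 of 5 were called after knockdown by limma. At an unadjusted p under 0.05 that count was 1, and CACNB2 was called higher with median-ratio scaling. Of 6 other transmitter receptor genes 2 rose and 3 fell in radioresistant cells, and 1 of 5 rose and 0 fell after knockdown. The gene that rose after knockdown, ADORA1, was under 1 TPM in all shNC libraries, so the filter on low values set its direction. In radioresistant cells the dopamine receptor gene DRD2 and the kainate receptor gene GRIK4 rose by 1.91 and 1.15 (log2, limma adjusted p = 1.6e-05 and 3.8e-04), GRIK4 having passed the low-value filter through its radioresistant values, which set its direction, while GRIK2, another kainate receptor gene, fell by 1.22 (limma adjusted p = 2.8e-04).

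Around FAIM2, 2 of 10 tested genes of the FAS pathway and the TMBIM family rose and 2 fell in radioresistant cells, and 1 rose and 4 fell after knockdown. FAS itself averaged 17.9 ± 2.75 TPM in radioresistant and 9.78 ± 1.6 TPM in control cells (log2 difference 0.81, limma adjusted p = 0.0022), and 17.7 ± 0.741 TPM in shIFI16 and 26.7 ± 2.39 TPM in shNC cells (log2 difference -0.56, limma adjusted p = 2.5e-04). FAS was higher in radioresistant and lower in shIFI16 cells, where FAIM2 had the other directions. For SCUBE3, 2 of 13 tested genes of TGF-beta and hedgehog signalling rose and 7 fell in radioresistant cells, and 7 of 14 rose and 3 fell after knockdown. SMO, the hedgehog signal transducer, fell by 2.54 (log2, limma adjusted p = 2.9e-07), with 2.41 ± 0.152 TPM in radioresistant and 18.8 ± 1.64 TPM in control cells. The hedgehog co-receptor genes CDON and BOC fell by 1.63 and 0.89 (log2, limma adjusted p = 3.8e-05 and 0.0015) and rose by 0.46 and 0.72 after knockdown (limma adjusted p = 0.01 and 4.4e-05). DISP1, which releases hedgehog ligands, fell by 1.39 in radioresistant cells (log2, limma adjusted p = 6.4e-05). The receptor gene PTCH1 and the transcription factor gene GLI3 fell by 0.74 and 0.57 in radioresistant cells and rose by 0.66 and 0.46 after knockdown, all past the threshold. BOC, PTCH1 and GLI3 changed less than 2-fold and were named after their values were seen. DISP1 and TGFBR1, which also fell in radioresistant cells, were not called after knockdown. The genes of this list that rose in radioresistant cells were TGFB3, which also rose after knockdown, and TGFBR3, which fell after it. TGFBR2, a TGF-beta receptor, fell by 1.24 after knockdown (log2, limma adjusted p = 2.5e-08).

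PRSS23, a relative of PRSS35, averaged 145 ± 12 TPM in radioresistant and 137 ± 14.4 TPM in control cells (limma adjusted p = 0.6), and 96.4 ± 6.79 TPM in shIFI16 and 116 ± 1.13 TPM in shNC cells (log2 difference -0.26, limma adjusted p = 0.0076). KLHDC8B, a paralog of KLHDC8A, averaged 8.34 ± 2.4 TPM in radioresistant and 7.69 ± 2.94 TPM in control cells (limma adjusted p = 0.7), and rose by 0.42 after knockdown (limma adjusted p = 0.0054). In the protease list 0 of 6 rose and 3 fell in each comparison, with PRSS12 at -1.65 in radioresistant cells (log2, limma adjusted p = 3.7e-06); after knockdown PRSS12 was called higher with either other scaling. KLHDC9 fell by 1.09 in radioresistant cells (log2, limma adjusted p = 0.0014), and in the KLHDC list 0 of 7 rose and 4 fell in radioresistant cells and 2 of 5 rose and 1 fell after knockdown.

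**Figure D5:**
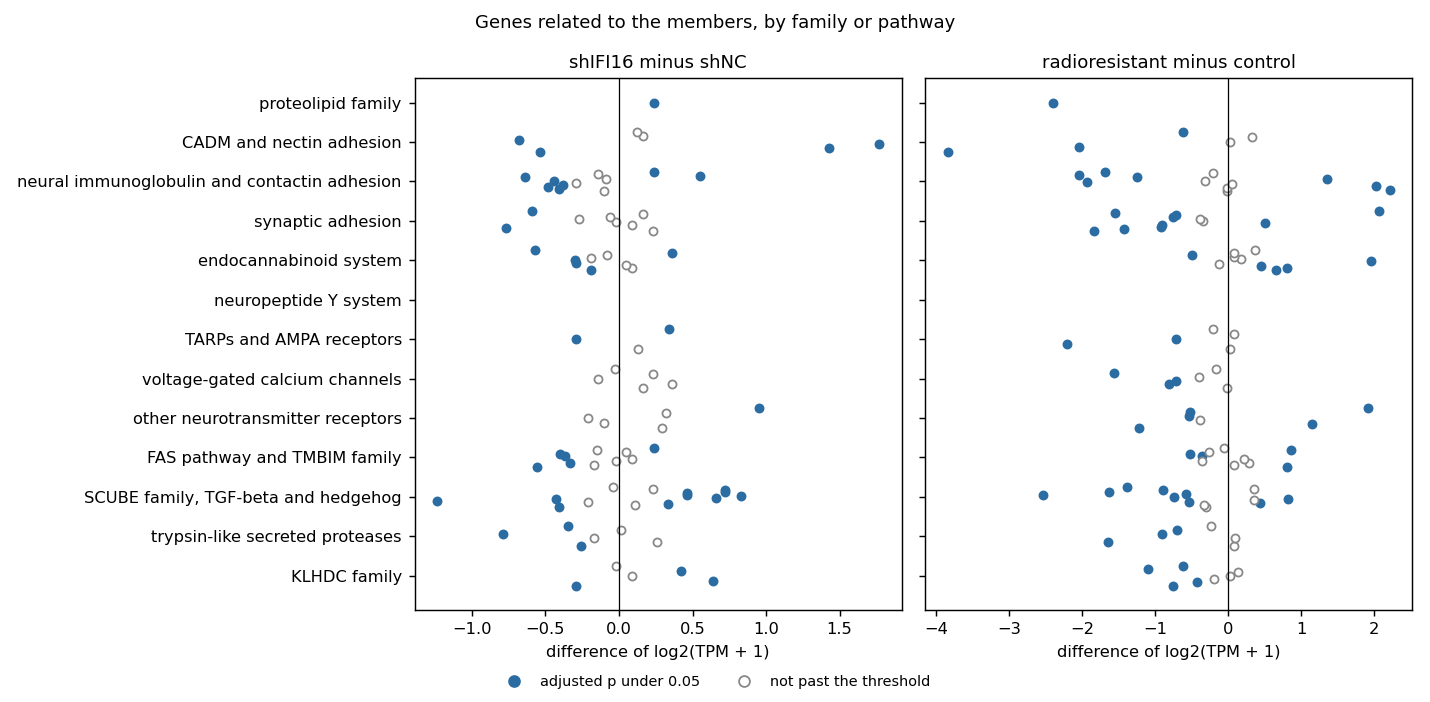
Differences of log2(TPM + 1) for the tested genes of 13 families and pathways around the 9 genes, each point a gene, with shIFI16 minus shNC on the left and radioresistant minus control on the right; filled points passed limma's adjusted threshold. In radioresistant cells 15 of 92 points are filled and higher and 40 filled and lower, and after knockdown 18 of 83 are filled and higher and 25 filled and lower.

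Tested markers of neural cell types fell or were not called in radioresistant cells, and they moved both ways after knockdown. Of the 8 astrocyte markers 5 were tested against control cells, and 5 fell; the list summed to 229 to 258 TPM in radioresistant and 4440 to 4590 TPM in control libraries. GFAP made up most of the control sum, with 80.6 ± 22.9 TPM in radioresistant and 4010 ± 112 TPM in control cells. After knockdown 2 of 4 astrocyte markers rose and 0 fell, with sums of 227 to 250 TPM in shIFI16 and 168 to 189 TPM in shNC libraries and GFAP at 31.1 ± 1.67 and 1.73 ± 0.344 TPM in these groups. Neuron markers fell in 3 of 6 cases in radioresistant cells and 0 rose (sums of 493 to 565 TPM in radioresistant and 1640 to 1760 TPM in control libraries), and 1 of 6 rose and 4 fell after knockdown (430 to 481 TPM in shIFI16 and 476 to 489 TPM in shNC libraries). The neuron marker STMN2 was listed at 0 in all 12 libraries and RBFOX3 stayed under 1 TPM; after knockdown the fall of GAP43 was not called with either other scaling. Of the 9 markers of oligodendrocytes and their precursors 1 was tested, PDGFRA, while MAG was listed at 0 throughout; PDGFRA fell in radioresistant cells (12.6 ± 3.17 TPM in radioresistant and 121 ± 21.3 TPM in control cells, limma adjusted p = 7.4e-07) and rose after knockdown (6.22 ± 0.967 TPM in shIFI16 and 1.08 ± 0.0615 TPM in shNC cells, limma adjusted p = 6.5e-08). Of the tested markers of other cells, the macrophage gene CD68 fell after knockdown (log2 difference -1.25, limma adjusted p = 5.5e-08) and the endothelial gene CDH5 rose (1.28, limma adjusted p = 1.2e-06), while no epithelial marker was tested. Immune markers, with AIF1 at 0, summed to 19.4 to 23.5 TPM in radioresistant and 15.3 to 20.6 TPM in control libraries, and endothelial markers to 4.66 to 5.07 TPM in radioresistant and 12.4 to 14.2 TPM in control libraries. Immune markers summed to 14.1 to 17.8 TPM in shIFI16 and 37.5 to 40.4 TPM in shNC libraries, and endothelial markers to 11.7 to 14.2 TPM in shIFI16 and 6.02 to 6.64 TPM in shNC libraries. The part of these cell type markers in the changes of the 9 genes was not tested.

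The deposited summit lists of open chromatin hold 12877 summits for the radioresistant library and 2454 for the control library, without replicates, so there is no test. Within 2000 bases of a listed start, 2 of the 5 genes with a promoter entry had a summit in the radioresistant library and 1 in the control library, against 27.4% and 4.98% of other genes. PRSS35 had a summit in both, 536 bases before its start in the radioresistant library (score 2.32) and 213 bases before it, inside the printed promoter, in the control library (score 2.26). NPY1R had a summit 298 bases before its listed start, just outside the printed promoter, in the radioresistant library (score 3.41). That start and the summit both lie inside the span of the gene, not at its outer end. The scores are the authors' own, on the -log10 scale of their peak caller.

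In a wider frame, the gene and 50000 bases on each side, all 9 genes had a summit in the radioresistant library and 1 (PRSS35) had one in the control library, against 66.6% and 19.8% of other genes. CADM1 had 3 such summits in the radioresistant library, one of them 377 bases outside the end of the gene with the higher coordinate (chromosome 11, 115169236 to 115504415). FAIM2 had a summit inside the gene (score 6.07). The nearest radioresistant summit lay outside the gene by 6104 bases for SCUBE3, 12453 bases for CACNG4, 21873 bases for KLHDC8A, 36009 bases for GPM6B (chromosome X, 13770939 to 13938638) and 44586 bases for CNR1.

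Overlapping genes limit some values, since the use of strand in the counting is not given. NPY1R (chromosome 4, 163323962 to 163344689) shares 798 bases with NPY5R, which was listed at 0 in all 12 libraries. GPM6B shares 2800 bases with OFD1, a centrosome gene that averaged 13 ± 0.547 TPM in shIFI16, 11.4 ± 1.06 TPM in shNC, 10.3 ± 2.04 TPM in radioresistant and 13.7 ± 2.49 TPM in control cells. SCUBE3 and CADM1 overlap non-coding genes, and KLHDC8A shares 387 bases with the pseudogene SNRPGP10. None of these overlapping genes had a row in the expression tables, so their levels could not be seen.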

How the data were processed

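RNA-seq was done on 12 libraries and ATAC-seq on 2. Groups and replicate numbers came from the labels. Columns of the expression tables carry codes, read as control (UN), radioresistant (UR), shNC (URN) and shIFI16 (URS) from the names of the ATAC-seq lists and the table each sample names; IFI16 was low in URS, which fits the labels, and the UN and UR columns have no such check. The authors deposited TPM in both tables although the tables are named as counts: the values are not whole and sum to 1000000 per library. The submitters' processing notes list featureCounts, Cufflinks 2.2.1, TopHat and Trim Galore 0.6.6 with the build hg38; how TPM was made, which annotation served and whether strand was used are not given in the sources at hand. For ATAC-seq the notes add Bowtie2 2.2.5, SAMtools 1.10 and MACS2 2.1.4, and the deposited score of a summit was read as a -log10 q-value from the layout of the file.

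TPM keeps no depth, so no counting interval can be given and the planned count test does not apply. limma 3.58.1 in R 4.3.3, with trend and robust moderation, was fitted two-sided within each table on log2(TPM + 1). Genes at or above 1 TPM in 3 or more of 6 libraries were tested, with Benjamini-Hochberg adjustment over all of them and a threshold of 0.05. The fit was also run on simulated data, with changes put only into genes above a set level. That run does not cover low genes such as CACNG4, SCUBE3 and KLHDC8A in the hairpin libraries. A fold change on the log2(TPM + 1) scale understates changes of low genes. Left out were 28 entries named as dates or more than once. The 9 genes, the lists of related genes and markers and the tests were chosen with earlier results of these data known. Named beside the 9 genes were related genes past the threshold and at least 2-fold changed (at most 4 per list by smallest p), paralogs, and the genes most like the 9 by r (5 for their mean, 3 for single genes). DAGLA, FAS, BOC, PTCH1, GLI3, TGFB3, TGFBR1, TGFBR3, CACNB2, GAP43, ADORA1, CNIH3 and CNTNAP2 were chosen after their values were seen. Older names of genes were matched through the gene name and RefSeq tables. Start sites were taken from RefSeq promoters (GRCh38.p14).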

Additional observations from a re-analysis of the deposited data

How the results depend on the processing

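After knockdown, 8 of the 9 genes were called higher with a pseudocount of 0.1 or 5, with either scaling and without trend and robust moderation. Requiring 5 TPM left 5, since low genes were then not tested. With 1 library left out the count was 5 to 8, because CACNG4 and SCUBE3 go untested when an shIFI16 library is missing and KLHDC8A lost its call; with a filter of 2 libraries, an alternative chosen after seeing the data, it was 7 to 8, and KLHDC8A was the further gene not called. The difference of NPY1R was -0.08 without shNC replicate 1 (limma adjusted p = 0.72) and -0.08 to 0.11 with any 1 library left out, and was not called in any alternative run. Whether same-numbered libraries are paired is not given and was not tested. In the first table r of deviations was -0.377, 0.245 and 0.081 for same-numbered libraries and -0.429 to 0.394 for the others. In the hairpin table it was 0.215, 0.0881 and 0.0278 for same-numbered libraries and -0.231 to 0.148 for the others. With the replicate block 8 of the 9 genes were called higher, and over all genes 3001 were called higher and 2609 lower after knockdown, against 2088 and 2052 without it, and 2110 and 3462 in radioresistant cells. With 1 library left out, calls after knockdown ran from 1318 (without shIFI16 replicate 2) to 2310 higher and from 1565 to 2307 lower, and in radioresistant cells from 1494 to 2743 higher and from 2237 (without control replicate 2) to 4395 lower. Related genes called higher in radioresistant cells were 23 without a low-value filter, 9 at 5 TPM and 10 to 17 with 1 library left out, and those called lower 28 to 41; after knockdown 9 to 17 were called higher and 17 to 27 lower. Of the 5 genes with listed starts, 1 had a radioresistant summit within 500 bases, and 0 had one with a score of at least 10 or among the highest-scored 2454 summits; 0 had a control summit with a score of at least 10. Taken over the gene and 50000 bases, the radioresistant count was 9 of 9. Where not given, the cause was not tested. TPM without depth limits what can be said of genes near 0, such as KLHDC8A in radioresistant cells.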
